A study of Mus musculus with 2 samples.

Results

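A set of 44 genes of the cell division cycle, out of 31053 in the matrix, was followed through the immune cells of B16 melanomas. They were picked by symbol and comprised 17 genes of DNA replication and S phase, 25 genes of G2 and mitosis, and Stmn1 and Hmgb2, 2 genes that rise in dividing cells but are also transcribed outside the cycle. All 44 matched a row of the matrix and a GENCODE M21 gene by identifier, and they lay on 17 chromosomes, none of them X.
Mice were 8 weeks old, and the live CD45+ fraction of their B16 tumours was profiled with the Chromium 3′ v3 kit, with 1 library per genotype. WT mice carried Mettl3 fl/fl without Cre, and KO mice carried Mettl3 fl/fl with Lyz2 cre/+, so that both groups shared the floxed allele and Cre was limited to cells with an active Lyz2 promoter, mainly macrophages, monocytes and granulocytes. Each library pooled tumours of several mice, so there is no spread between mice to test against. No p-value is therefore given between genotypes. Intervals are exact, cover counting error only, and compare the library labelled WT with the library labelled KO. In every class, intervals of UMI counts treat UMIs of 1 cell as independent and are too narrow.

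Before a cell divides it loads the Mcm2-7 helicase onto origins with Cdc6 and Cdt1, fires them under cyclin E and Cdk activity, and copies its DNA with the Pcna clamp while Rrm1, Rrm2, Tyms and Tk1 supply nucleotides. These S-phase genes are classic targets of E2F factors. The mitotic genes come later: Cdk1 with cyclins A and B drives entry, Aurora and Polo kinases and kinesins build the spindle, Cdc20 and Ube2c serve the ubiquitin ligase that ends mitosis, and many of these promoters carry a cell cycle homology region (CHR) read by the DREAM and MuvB complexes. Many resident and tumour macrophages divide in place, whereas circulating monocytes and mature granulocytes have largely left the cycle.

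Promoter letters differed in frequency between the S-phase and the mitotic genes. RefSeq windows on GRCm38.p6 reached from upstream of the annotated start to just inside it and were found for 14 of 17 S-phase and 21 of 25 mitotic genes. A CHR, searched as TTTGAA or TTTAAA on both strands, lay in 19 of 21 mitotic genes (90.5%), in 6 of 14 S-phase genes (42.9%) and in 30.6% of all 27025 genes with a window. An E2F site, searched as TTTCCCGC, TTTGGCGC, TTTCGCGC or TTTGCCGC on both strands, lay in 7 of 14 S-phase genes, in 1 of 21 mitotic genes (Cdk1, 4.76%) and in 2.60% of all genes. A CCAAT box (CCAAT, both strands) accompanied the CHR in 18 of 21 mitotic genes (85.7%), in 28.6% of S-phase genes and in 12.2% of all genes. A match is a run of letters in the window and not a measured binding site. The following stretches of 30 bases are shown because they hold the letters that differ between the lists. Capitals mark the CHR in the first 4 and the E2F letters in the last 3, read 5′ to 3′ on the gene's own strand.
Cdk1, chr10:69352966-69352995, minus strand: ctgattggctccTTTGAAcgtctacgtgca
Ccnb1, chr13:100786511-100786540, minus strand: agcggcccggggTTTAAAcctaagcccggc
Cdc20, chr4:118437344-118437373, minus strand: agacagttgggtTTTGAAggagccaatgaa
Mki67, chr7:135716478-135716507, minus strand: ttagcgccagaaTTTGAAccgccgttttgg
Mcm5, chr8:75109349-75109378, plus strand: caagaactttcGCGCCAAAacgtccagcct
Cdc6, chr11:98908002-98908031, plus strand: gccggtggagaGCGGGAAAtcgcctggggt
Uhrf1, chr17:56304117-56304146, plus strand: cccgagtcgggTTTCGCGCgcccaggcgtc
The Mcm5 and Cdc6 runs are the reverse complements of 2 of the E2F letter strings.

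The matrix held 5895 barcodes and 45963969 UMIs labelled WT, and 8446 barcodes and 54052317 UMIs labelled KO. After filtering, 5405 and 7625 barcodes were kept, with a median of 4148 and 3567 UMIs, and 13 barcode sequences occurred in both libraries. Marker gates placed 4285 WT and 6240 KO barcodes in 13 immune classes and 129 and 220 in a melanoma class that had passed the CD45 sort (Ptprc at 6.78 counts per 1000000 UMIs, CPM, against 340.9 in macrophages). Defining markers were high in their class: C1qa at 3240 CPM in macrophage-gated barcodes, Ly6c2 at 763 in monocytes, S100a9 at 60170 in granulocytes, Cd8a at 446 in CD8 T and Xcr1 at 457 in cDC1. Barcodes with markers of several lineages were set aside (6.51% of WT and 3.502% of KO). Mettl3 stood at 9.87 CPM (8.45 to 11.5) in WT and 10.5 (9.02 to 12.2) in KO macrophages, but the matrix does not give where in the gene these UMIs lie, so they do not check the deletion. Lyz2, whose locus carries the Cre, was at 6129 CPM in WT and 2748 CPM in KO macrophages. The 7 granulocyte markers summed to 302 CPM in WT and 108 CPM in KO macrophages, 142 and 42.2 in CD8 T cells, 183 and 14.96 in cDC1 and 129 and 26.3 in melanoma-gated barcodes, and their part in the results was not tested.

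Cycling barcodes were found mainly among macrophages and CD8 T cells in both libraries, and hardly among monocytes and granulocytes. A barcode was called cycling where the 42 S-phase and mitotic genes gave at least 5 UMIs and at least 20 per 10000 UMIs. This cuts a continuous range, and 189 WT and 209 KO macrophages lay within 1.5 times of the limit. Of immune barcodes, 558 of 4285 were called cycling in the library labelled WT (13.02%, 95% Clopper-Pearson interval 12.0 to 14.1) and 617 of 6240 in the library labelled KO (9.89%, 9.16 to 10.7). Macrophages made up 72.8% and 67.3% of them, and CD8 T cells 17.9% and 18.3%.
In the CD8 T class 27.3% of WT barcodes (100 of 366; 22.8 to 32.2) and 31.0% of KO barcodes (113 of 365; 26.3 to 36.0) were cycling. Macrophages stood at 25.7% of WT barcodes (406 of 1582; 23.5 to 27.9) and 20.9% of KO barcodes (415 of 1987; 19.1 to 22.7). At full depth the intervals of the 2 libraries did not overlap in macrophages and overlapped in CD8 T cells.
Among cDC1, the cross-presenting dendritic cells, 12 of 88 WT barcodes (13.6%; 7.25 to 22.6) and 21 of 67 KO barcodes (31.3%; 20.6 to 43.8) were cycling. CD4 T cells stood at 13.7% (10 of 73) and 15.8% (19 of 120), an order that turned to 20.6% and 17.4% after thinning to 1000 UMIs. T cells with a UMI of Foxp3, the regulatory T cell factor, were cycling in 8 of 29 WT and 10 of 21 KO barcodes, against 13.1% and 12.1% of CD4 T barcodes without one. The barcodes with a Foxp3 UMI were deeper, with a median of 3457 and 3750 UMIs against 1852 and 1850, and the part of depth in this difference was not tested.
Lower shares were read in T cells with neither or both co-receptors (6.70% WT, 6.14% KO), in cDC2 (7.75% and 5.06%) and in NK cells (1.35% and 3.57%). B cells, plasmacytoid and mature dendritic cells held at most 2 cycling barcodes per library, and plasma cells, with 10 and 28 barcodes, held 2 and 4.
Monocytes, the largest class by barcodes in the library labelled KO, were cycling in 3 of 914 WT (0.328%) and 8 of 2472 KO barcodes (0.324%). Granulocytes served as the class that should lack the transcripts: 0 of 553 WT barcodes were cycling, which allows a share of up to 0.542% (3 counts of the total), and 1 of 252 KO barcodes. Granulocytes were shallow, with a median of 1338 and 1074.5 UMIs against 8927 and 6781 in macrophages. Shares were therefore also read after each barcode was thinned to 1000 UMIs, calling 3 or more UMIs cycling. Macrophages then stood at 22.0% (19.9 to 24.1) and 18.3% (16.6 to 20.2), CD8 T cells at 24.0% and 28.3%, cDC1 at 10.2% and 20.9%, monocytes at 0.342% (0.0706 to 0.996) and 0.593% (0.325 to 0.994), and granulocytes at 0.228% (0.00578 to 1.27) and 0.685% (0.0173 to 3.76). Under that depth fell 97 WT and 133 KO macrophages, and 115 and 106 granulocytes. At this depth the macrophage intervals of the 2 libraries overlapped, and monocytes could not be told from granulocytes. The log2 ratio of KO to WT macrophage shares was -0.30 (-0.50 to -0.10) at full depth and -0.26 (-0.48 to -0.04) thinned. Thinned to 2000 UMIs, which left out 101 WT and 152 KO barcodes of the class, CD8 T cells stood at 30.9% (25.4 to 36.9) and 44.1% (37.4 to 51.1), and these intervals did not overlap. CD8 T barcodes not called cycling at full depth had medians of 2465.5 and 1804 UMIs, against 8299.5 and 8269 in cycling ones. The part of this depth limit in the difference was not tested.

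**Figure D1:**
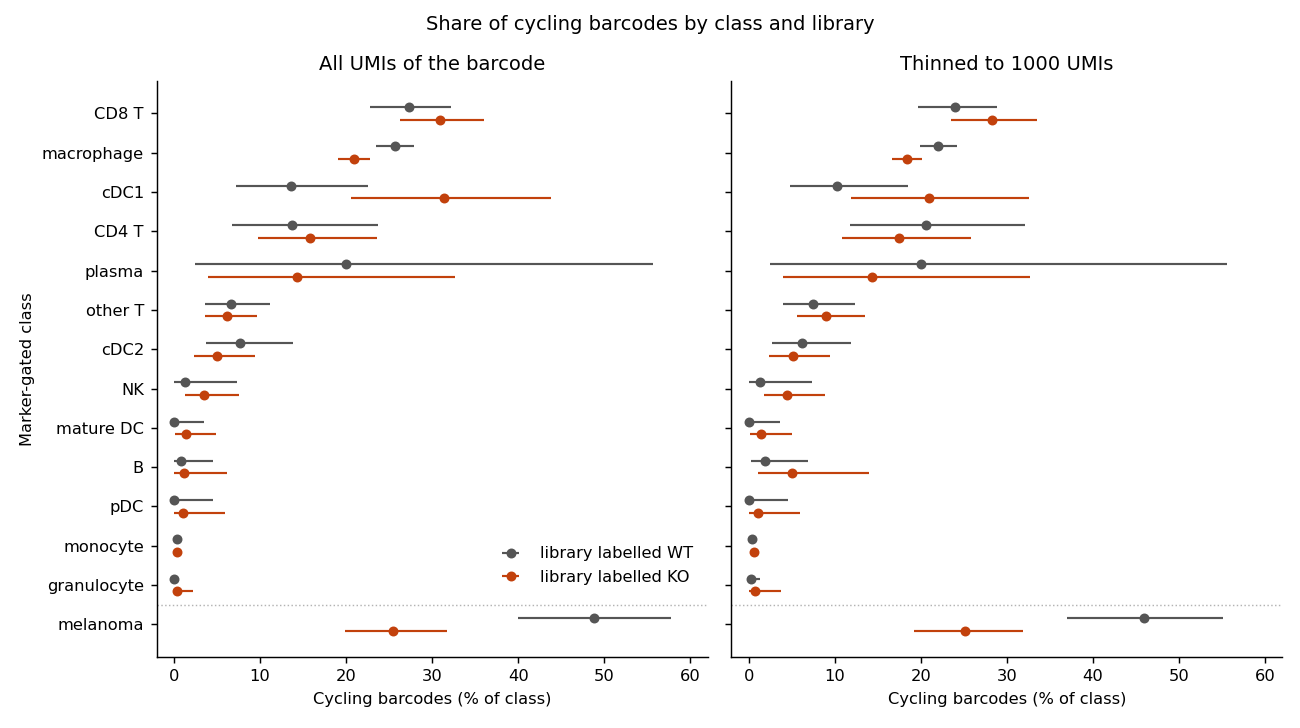
Cycling barcodes as a percentage of each marker-gated class (x axis) in the library labelled WT (grey) and the library labelled KO (orange), with all UMIs (left) and thinned to 1000 UMIs (right). Bars are exact 95% intervals for counting error. CD8 T cells and macrophages lie between 20.9% and 31.0% at full depth, where monocytes and granulocytes stay under 0.4%. Thinned, they reach 0.593% and 0.685%.

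The S-phase list gave 72516 UMIs over all barcodes of the matrix, the mitotic list 99156, and Stmn1 with Hmgb2 79167. Of the S-phase genes Pcna (11168 UMIs), Mcm3 (6360), Rrm1 (5971), Mcm2 (5875) and Mcm6 (5709) were counted most. Of the mitotic genes these were Top2a (11571), the topoisomerase that untangles sister chromatids, Ube2c (8866), Birc5 (8640), Cenpa (7779) and Mki67 (7741).
Summed over the S-phase list, CD8 T cells held 1231 CPM in the library labelled WT and 1466 in the library labelled KO, and macrophages 867 and 728. Monocytes held 172 and 163 CPM and granulocytes 116 and 127. The mitotic list gave 1889 and 2179 CPM in CD8 T cells, 1187 and 1059 in macrophages, 122 and 102 in monocytes and 125 and 148 in granulocytes. CD8 T cells stood above macrophages on both lists, and both stood well above monocytes and granulocytes, whose own order differed between the lists. CD4 T cells, with 73 and 120 barcodes, held 1137 and 1081 CPM of the S-phase list. Their mitotic sums of 2209 and 2353 CPM were above those of CD8 T cells.
Gene by gene, levels were ranked among immune classes with at least 100 barcodes in each library, which leaves out CD4 T cells. Among these, CD8 T cells held the highest level of 14 of 17 S-phase genes in WT and 15 of 17 in KO. Of the 25 mitotic genes they held the highest level of 22 and 24. Every gene of both lists was higher in macrophages than in monocytes in both libraries. The median of these macrophage to monocyte ratios was 7.196 (WT) and 6.38 (KO) over the S-phase genes and 15.1 and 14.3 over the mitotic genes.
Hmgb2, a chromatin protein, stood apart from the lists in granulocytes. It was at 851 CPM over all granulocytes, against 524 in WT and 517 in KO macrophages, so there its level did not follow the cycling share. Over all immune classes Hmgb2 was at 1575 CPM in cycling and 264 CPM in other barcodes. Of the other members, Pcna (42.0 CPM), Kif23 (29.1) and Cenpa (21.7) were the highest in granulocytes.

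**Figure D2:**
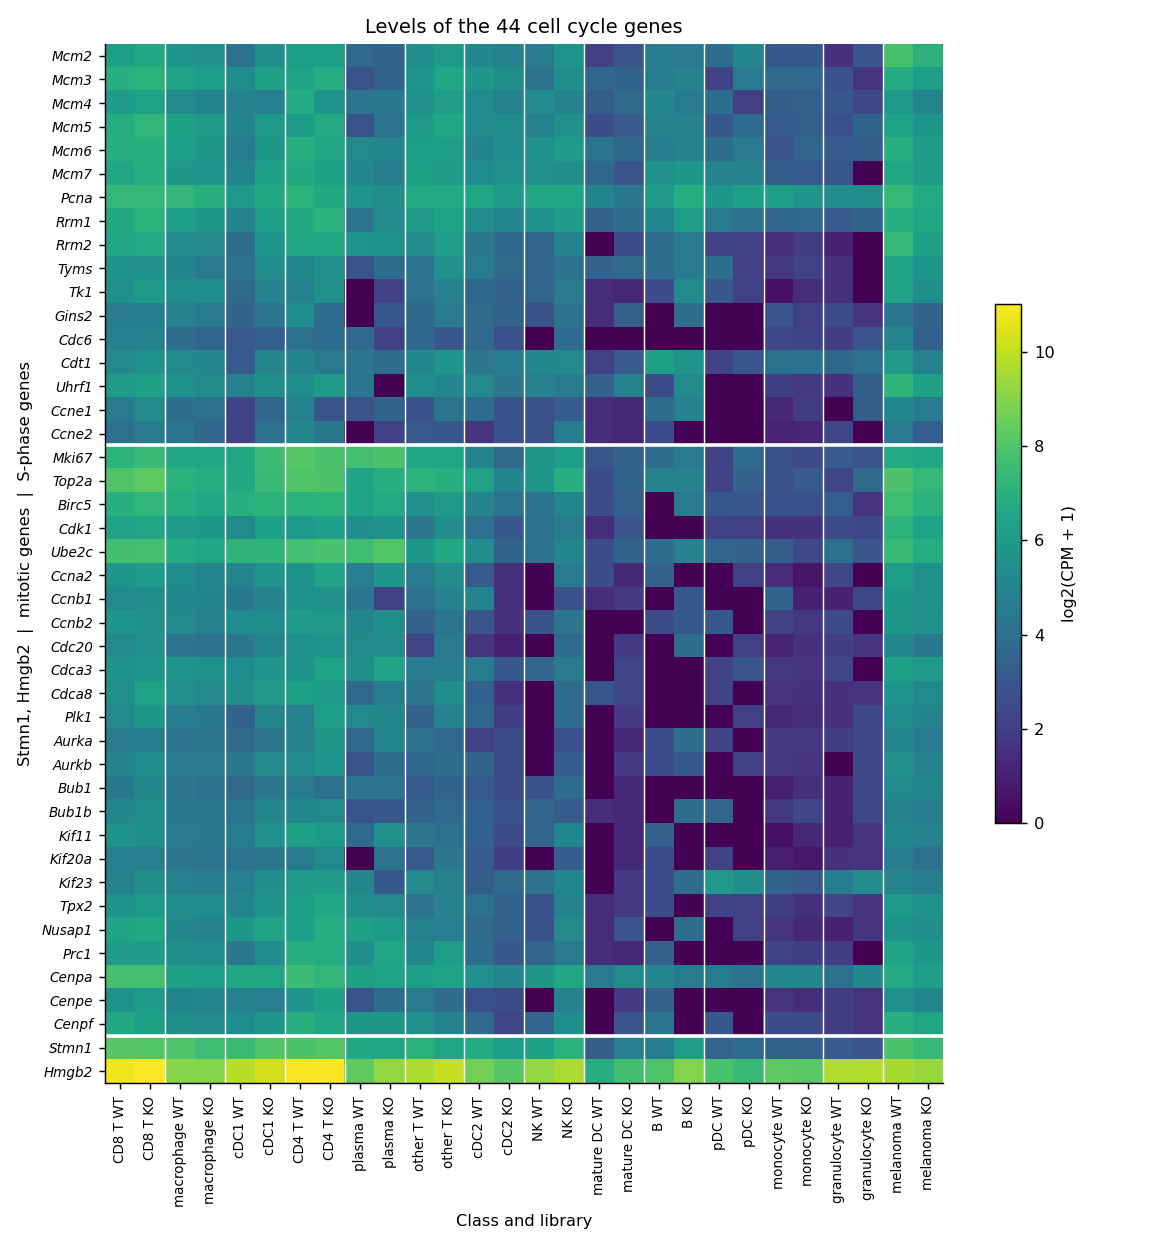
Levels of the 44 genes (rows, grouped into S-phase genes, mitotic genes, and Stmn1 and Hmgb2) in each class and library (columns), as log2(CPM + 1) of the summed UMIs. CD8 T, macrophage, cDC1, CD4 T and melanoma columns are bright throughout, whereas monocyte, granulocyte and plasmacytoid dendritic columns are mostly dark, with Hmgb2 the brightest gene in each.

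**Figure D3:**
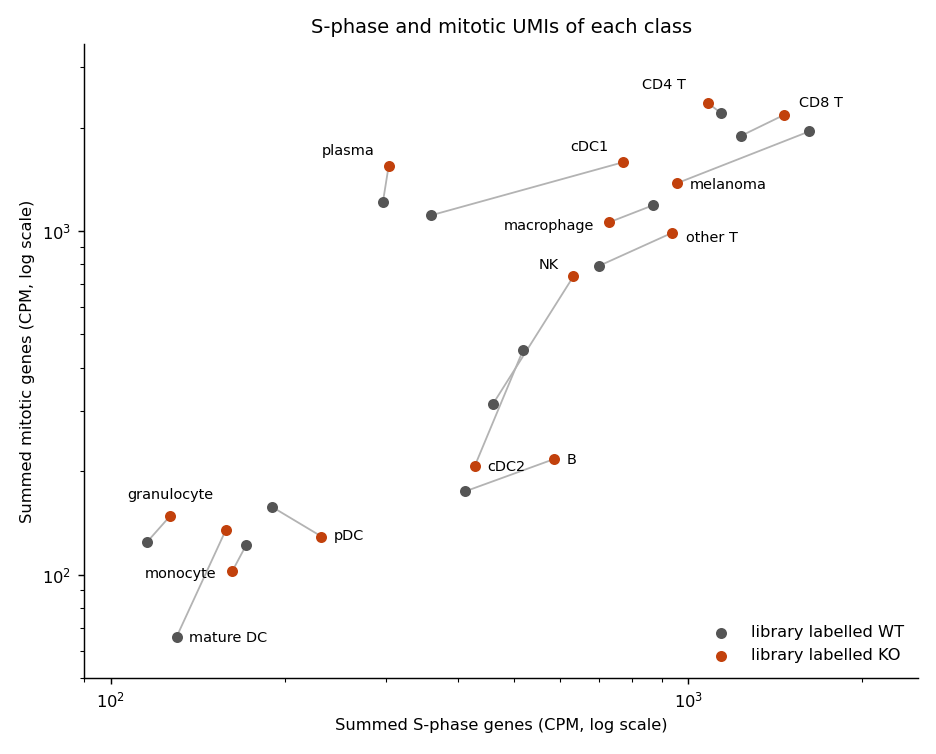
Summed S-phase genes (x axis, CPM, log scale) against summed mitotic genes (y axis, CPM, log scale), with 1 point per class and library and a line joining the libraries of a class. Macrophages (867 and 728 against 1187 and 1059) and melanoma move down and left in the library labelled KO, and CD8 T cells and cDC1 move up and right.

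A larger part of the mitotic than of the S-phase transcripts lay in barcodes called cycling. In the immune classes 1175 of 10525 barcodes (11.2%) were cycling and held 24.95% of all UMIs, with a median of 12199 UMIs against 3461 in the others. They held a median of 89.7% of the UMIs of a mitotic gene, from 66.1% for Cenpa to 96.2% for Nusap1, a microtubule binder of the spindle. For S-phase genes the median was 68.6%, from 44.8% for Cdt1 to 89.8% for Rrm2. The call itself used these genes, so these shares describe where the counts lie and test nothing.
In macrophages, S-phase genes stood at 1624 CPM in WT and 1492 in KO cycling barcodes, against 435 and 369 CPM in the others. Mitotic genes stood at 2951 and 2923 CPM in cycling barcodes and at 181 and 182 CPM in the others. Per UMI, the mitotic level of cycling macrophages was close in the 2 libraries, while the S-phase level was lower in KO both inside and outside the call. Cycling macrophages had a median of 14790 UMIs in WT and 12601 in KO, so a level per UMI is not a level per cell here. In CD8 T cells cycling barcodes held 1980 (WT) and 2076 CPM (KO) of the S-phase list and 3429 and 3300 of the mitotic list.
Each list was also read in barcodes chosen by the other. Macrophages chosen by S-phase UMIs alone (151 WT, 142 KO) held 1523 and 1407 CPM of mitotic genes, against 232 and 196 CPM where no S-phase UMI was seen. Macrophages chosen by mitotic UMIs alone (229 and 247) held 1186 and 1131 CPM of S-phase genes, against 303 and 289 where no mitotic UMI was seen. High levels of the lists thus met in the same barcodes, although neither list chose the other.
Within cycling barcodes the balance of the lists varied widely. The median share of S-phase among S-phase plus mitotic UMIs was 38.3% in WT and 34.7% in KO macrophages. Barcodes with more than 2 S-phase UMIs for each mitotic UMI made up 29.8% (25.4 to 34.5) and 27.2% (23.0 to 31.8), and those with more than 2 mitotic UMIs for each S-phase UMI 45.6% and 47.5%. In CD8 T cells the medians were 42.0% and 48.3%, with 30 of 100 WT and 36 of 113 KO cycling barcodes leaning to S phase by that limit, and 42.0% (32.2 to 52.3) and 31.9% (23.4 to 41.3) leaning to mitosis. All of these intervals overlapped between the libraries.

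In macrophages most genes of both lists were slightly lower in the library labelled KO. Of 17 S-phase genes 16 were lower, 12 of them with a counting interval below 0, and of 25 mitotic genes 23 were lower, 11 with an interval below 0 (background 11.5% of genes with at least 20 UMIs). The differences were small. Among the 16 members that reached 50 CPM, 0 were lower by 0.5 or more on the log2 scale, where 0.495% of 2828 genes were, and 0 were higher, where 1.8% were. The median log2 ratio of KO to WT over these 16 was -0.21 (CPM + 1), against 0.004 over all genes past the same filter, of which 5% lay below -0.23.
Summed, the S-phase list changed by a log2 ratio of -0.25 (-0.29 to -0.22) and the mitotic list by -0.16 (-0.19 to -0.14). The Mcm2-7 helicase went from 375 to 319 CPM (-0.23, -0.29 to -0.18), and Pcna from 151 to 119 CPM (-0.35, -0.43 to -0.26). Uhrf1, which restores DNA methylation after replication, went from 48.6 to 37.5 CPM (-0.37, -0.52 to -0.22), and the nucleotide enzymes together from 179 to 157 CPM (-0.18, -0.26 to -0.11), among them Tyms, thymidylate synthase, from 30.5 to 23.3 CPM. Ccne2, a cyclin E, had the lowest ratio of all members (18.5 to 12.4 CPM; -0.58, -0.84 to -0.32), whereas Ccne1, the other cyclin E, was level (14.8 and 15.4 CPM; 0.06, -0.19 to 0.31).
Of the mitotic groups, Cdk1 and its cyclins went from 171 to 149 CPM (-0.20, -0.28 to -0.12), with Ccnb2, cyclin B2, at 37.0 and 27.7 CPM (-0.41, -0.59 to -0.24). Mki67 and Top2a together went from 233 to 205 CPM (-0.18, -0.25 to -0.12). Centromere genes were nearest to level (153 and 144 CPM; -0.08, -0.16 to -0.0044). Aurka, the centrosome kinase, had the highest ratio (18.1 and 19.8 CPM; 0.12, -0.10 to 0.35). Stmn1, which destabilises microtubules, went from 250 to 194 CPM (-0.37, -0.43 to -0.30), while Hmgb2 was level at 524 and 517 CPM (-0.02, -0.06 to 0.02).

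The macrophage gate reached to the border with monocytes, and the libraries differed there. All 9 monocyte markers were counted in both libraries of the class. Of these, 8 were higher in KO, and their sum was 972 CPM in WT and 1366 in KO. Macrophages whose macrophage markers were at most 1.5 times their monocyte markers made up 4.05% of the class in WT and 8.20% in KO, and 7.81% (5 of 64) and 1.84% (3 of 163) of them were cycling. Between 1.5 and 5 times, 6.77% of WT and 7.03% of KO barcodes were cycling. Above 5 times, which held 76.4% of the WT and 66.7% of the KO class, 31.5% (28.8 to 34.2) and 28.4% (26.02 to 30.9) were cycling, and these intervals overlapped. Within that range the mitotic list had a log2 ratio of -0.02 (-0.05 to 0.01) and the S-phase list -0.13 (-0.17 to -0.09). With the 3 ranges given equal weight, the mitotic ratio turned to 0.07, the S-phase ratio was -0.21, and the cycling share was 15.3% in WT and 12.4% in KO. Equal weight counts the lowest range, with 64 and 163 barcodes, as much as the highest. Mitotic genes stood at 140 and 170 CPM in the lowest range, 317 and 399 in the middle one and 1347 and 1328 above 5 times. The lower mitotic sum of the KO macrophage class was not seen among barcodes far from the monocyte border. These ranges were chosen after the values were seen.
Cycling macrophages held less of the monocyte genes than the others: Ly6c2 at 32.8 CPM in WT and 39.96 in KO against 82.9 and 210 CPM, and Ccr2, the receptor that brings monocytes into tissue, at 111 and 113 against 322 and 359 CPM. C1qa stood at 3569 and 3752 CPM in cycling and 3047 and 3003 CPM in other macrophages, but the other macrophage genes read did not share this order in both libraries. Apoe was at 3849 and 3369 in cycling and 4857 and 4122 CPM in other macrophages, Mrc1 at 659 and 527 against 596 and 558, and Adgre1 at 304 and 262 against 337 and 263. The T cell gene Cd3e was at 4.77 and 3.30 CPM in cycling and 4.26 and 4.40 in other macrophages, and Pmel of melanoma cells at 26.1 and 20.5 against 25.02 and 28.2 CPM.

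**Figure D4:**
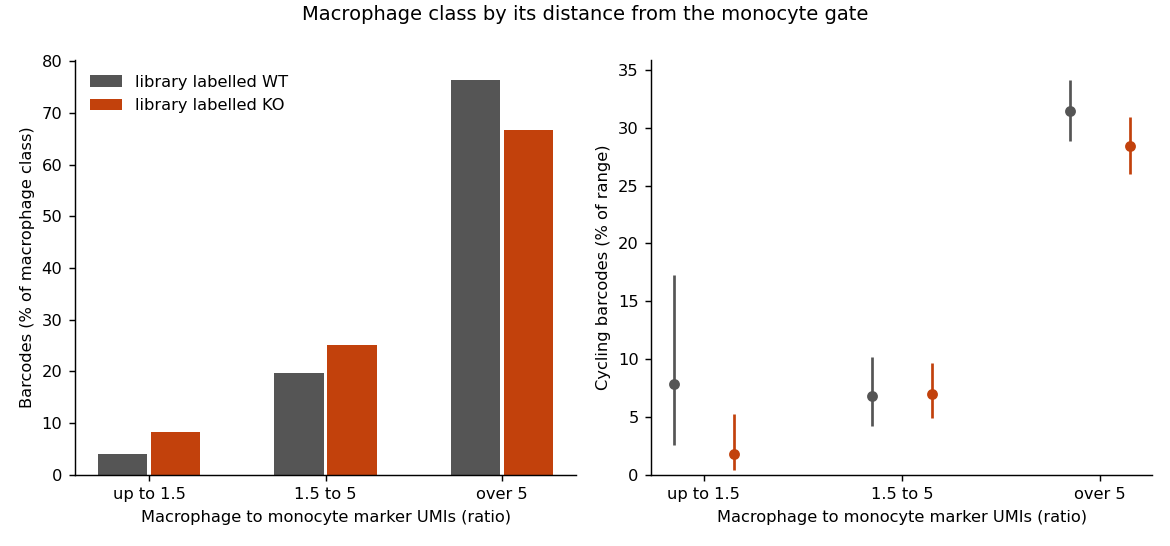
Left, percentage of the macrophage class (y axis) in 3 ranges of the ratio of macrophage to monocyte marker UMIs (x axis). Right, cycling barcodes as a percentage of each range with exact 95% intervals. In the range over 5 times the library labelled WT is at 31.5% and the library labelled KO at 28.4%, and in the middle range at 6.77% and 7.03%.

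In CD8 T cells, which are not of the myeloid lineage that Lyz2-Cre targets, most members were higher in the library labelled KO. Of 17 S-phase genes 16 were higher, 6 with an interval above 0 (background 6.59%), and of 25 mitotic genes 19 were higher, 9 with an interval above 0 and 1 below it (background 5.32%). Among 29 members past 50 CPM, 2 were higher by 0.5 or more (background 2.69% of 2792 genes) and 0 were lower (2.29%), and their median was 0.25, against 0.05 over all genes. The S-phase sum had a log2 ratio of 0.25 (0.17 to 0.33) and the mitotic sum 0.21 (0.14 to 0.27). The share of cycling barcodes, counted per barcode, had one of 0.18 (-0.22 to 0.58).
Cdca8, a subunit of the chromosomal passenger complex, went from 45.6 to 82.9 CPM (0.86, 0.48 to 1.24), and Plk1 from 37.8 to 55.7 CPM (0.56, 0.13 to 0.999). Bub1, a spindle checkpoint kinase, was at 20.1 and 33.6 CPM (0.74, 0.16 to 1.34), and Ccne1 at 22.6 and 37.7 CPM (0.74, 0.19 to 1.30). Mitotic kinases and their partners summed to 357 and 501 CPM (0.49, 0.35 to 0.63), while centromere genes were level (365 and 357 CPM; -0.03, -0.18 to 0.12). Cenpf, a kinetochore protein, was lowest at 97.2 and 75.8 CPM (-0.36, -0.67 to -0.05), and its ratio was -0.16 without the barcode that held most of its UMIs in each library. The helicase genes were at 595 and 715 CPM (0.27, 0.15 to 0.38).
Depth moved with this comparison, since cycling CD8 T barcodes held 51.4% of the UMIs of the class in WT and 63.7% in KO. A mean of per-barcode CPM put the mitotic ratio at 0.09. Its part in the result was not tested.

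**Figure D5:**
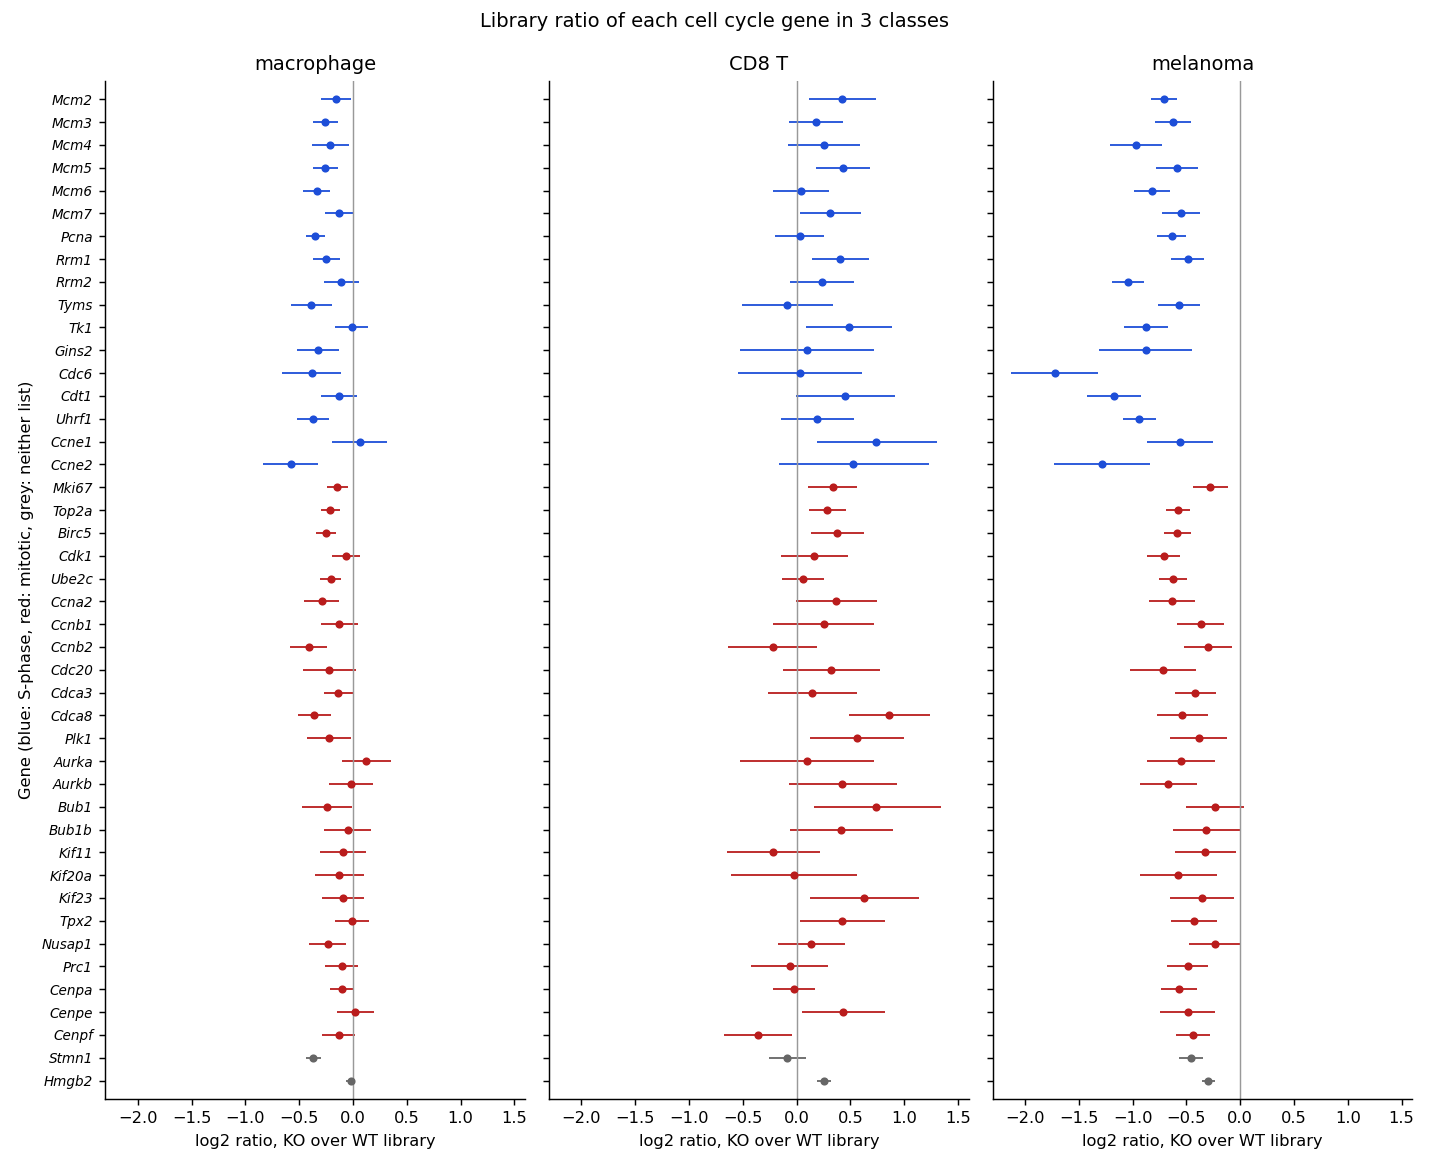
Log2 ratio of the library labelled KO to the library labelled WT (x axis) for each of the 44 genes (rows) in macrophages, CD8 T cells and melanoma-gated barcodes, with exact 95% counting intervals. Blue marks S-phase genes, red mitotic genes and grey Stmn1 and Hmgb2. Macrophage genes lie mostly just left of 0, CD8 T genes mostly right of 0, and melanoma genes left of 0 throughout, with Cdc6 at -1.72.

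Melanoma-gated barcodes, which are tumour cells, held the largest S-phase difference of the classes with at least 100 barcodes per library, and lower levels of every member of both lists in the library labelled KO. Cycling barcodes were 63 of 129 in WT (48.8%, 39.9 to 57.8) and 56 of 220 in KO (25.5%, 19.8 to 31.7). With the limit of 5 UMIs alone the shares were 81.4% and 74.1%, and their log2 ratio went from -0.94 to -0.14. The S-phase sum went from 1619 to 954 CPM (log2 ratio -0.76, -0.81 to -0.72) and the mitotic sum from 1949 to 1376 CPM (-0.50, -0.54 to -0.46). All 17 S-phase genes and 24 of 25 mitotic genes had an interval below 0 (background 14.6%), and 19 of 29 members past 50 CPM were lower by 0.5 or more (background 3.77%) and 0 higher (2.45%). Cdc6, an origin licensing factor, was lowest at 32.2 and 9.78 CPM (-1.72, -2.13 to -1.32), then Ccne2 at 21.5 and 8.84 CPM (-1.28) and Cdt1, also of licensing, at 63.1 and 28.0 CPM (-1.17, -1.42 to -0.92). Bub1 was nearest to level (38.3 and 32.6 CPM; -0.23, -0.50 to 0.03). A CD45 sort keeps few tumour cells, and whether these stand for the tumour was not tested.

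In cDC1, of 17 S-phase genes 16 and of 25 mitotic genes 21 were higher in the library labelled KO. Among the 14 S-phase and 25 mitotic genes with at least 20 UMIs, 11 and 11 had an interval above 0 (background 6.21%) and 0 below it (3.84%). The S-phase sum went from 358 to 770 CPM (1.10, 0.92 to 1.29) and the mitotic sum from 1110 to 1585 CPM (0.51, 0.40 to 0.63). As in the other classes, these intervals treat UMIs of 1 cell as independent and are too narrow. Here 12 and 21 cycling barcodes lie behind the sums. The share of cycling barcodes itself had a log2 ratio of 1.201 (0.11 to 2.36) at full depth and 1.03 (-0.28 to 2.42) after thinning, and it was 0.34 with the limit of 5 UMIs alone.
In cDC2 the mitotic sum went from 452 to 208 CPM (-1.12, -1.37 to -0.88) and the S-phase sum from 518 to 427 CPM (-0.28, -0.47 to -0.09), with 10 and 9 cycling barcodes. Of 5 members past 50 CPM 4 were lower (background 3.69%) and 0 higher (7.94%). Ccnb1, cyclin B1, was at 28 UMIs in WT and 2 in KO, and Ube2c at 38 and 11. The mitotic ratio was -0.32 after thinning to 1000 UMIs and -0.40 as a mean of per-barcode CPM, and the S-phase ratio was -0.02 with Leiden cluster classes. Of the 9 monocyte markers 7 were higher in KO cDC2, with sums of 1961 and 2845 CPM, and their part in the result was not tested.
In T cells with neither or both co-receptors 8 of 18 members past 50 CPM were higher (background 10.5%) and 1 was lower (9.76%), with S-phase sums of 699 and 936 CPM. The cycling share of that class was 6.70% and 6.14% at full depth, 7.43% and 8.97% thinned to 1000 UMIs and 12.99% and 17.4% thinned to 2000. Its barcodes not called cycling had medians of 1725 and 1395.5 UMIs, so the shares at 2000 rest on the deeper barcodes alone. In mature dendritic cells the only member past 50 CPM, Hmgb2, was higher (116.6 and 204 CPM; background 8.52%, with 0 members lower, background 5.48%).
In monocytes neither of 2 members past 50 CPM was called (0 lower against 0.742% of all genes, 0 higher against 4.45%), and in granulocytes Hmgb2, alone past 50 CPM, was not called (background 8.81% lower and 21.8% higher). Ccnb1 in monocytes was at 47 UMIs in WT and 9 in KO, and its log2 ratio of -3.52 came down to -1.13 without the barcode that held most of its UMIs in each library. The S-phase sum of monocytes had a ratio of -0.08 (-0.20 to 0.05) and the mitotic sum, from 122 to 102 CPM, one of -0.25 (-0.40 to -0.09). The mitotic ratio of monocytes was -0.10 after thinning to 1000 UMIs and -0.01 with Leiden cluster classes.

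Of 33 further genes that control the cycle (D cyclins, Cdk inhibitors, pocket proteins, E2F, DREAM and FoxM1 regulators), 22 were lower and 11 higher in KO macrophages, with 6 intervals below 0 (background 11.5%) and 4 above it (15.1%). In CD8 T cells 11 were lower and 22 higher in the library labelled KO, with 4 intervals below 0 (5.32%) and 3 above it (6.59%). Of those past 50 CPM, 8 in macrophages and 11 in CD8 T cells, 0 reached 0.5 in either direction. The following genes of that list were chosen after their values were seen. Foxm1, the factor that joins MuvB on mitotic promoters, was at 38.2 CPM in WT and 38.3 in KO cycling macrophages and at 2.27 and 3.28 in the others, and Mybl2 at 25.6 and 19.4 against 1.81 and 1.81. Cdkn2c, a Cdk4 and Cdk6 inhibitor, was also higher in cycling macrophages (51.5 and 45.1 against 5.62 and 3.36 CPM). Cdkn1a, or p21, which halts the cycle, was at 202 and 236 CPM in cycling and 300 and 408 CPM in other macrophages, and Btg1 at 274 and 316 against 467 and 566. Btg2 was at 72.8 and 64.7 CPM in cycling and 107 and 115 in other macrophages. Cdkn1a and Btg1 were higher in the library labelled KO in cycling and in other macrophages, and the Btg2 intervals of the libraries overlapped in both.

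Across the 28 sums (14 classes in 2 libraries), which share library and depth, each member was compared with the summed level of the other members, and Pearson's r of log2 CPM ran from 0.60 for Kif23 to 0.94 for Top2a with a median of 0.84. Of 6636 other genes, Pclaf, a Pcna partner, followed the sum of all 44 most closely (r = 0.94), then Clspn, which serves the replication checkpoint (0.92), Smco4 (0.89), Mad2l1 of the spindle checkpoint (0.89), Cenpw (0.88) and Hmgb3 (0.88). Dut, which keeps uracil out of DNA (0.87), Ncapd2 of condensin (0.87), Aspm (0.87) and Spc24 of the kinetochore (0.86) completed the 10 closest. In macrophages Pclaf was at 139 CPM in WT and 109 in KO, and in monocytes at 3.17 and 4.24 CPM.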

How the data were processed

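Single-cell RNA-seq was analysed from 1 library per genotype of live CD45+ cells of B16 tumours. Per the file headers, the deposited matrix holds raw UMI counts that the authors made with Cell Ranger 4.0.0 on mm10 (GRCm38), with both libraries joined; whether reads were subsampled when they were joined is not given in the sources used here. A deposited table gave each barcode's library, and 0 per-sample columns were left unused. Barcodes needed at least 200 genes and at most 10% mitochondrial UMIs (234 WT and 289 KO removed). The automatic threshold of Scrublet in scanpy 1.11.5 marked 1 barcode per library and so failed, and the top scores were removed at 0.8% per 1000 barcodes (256 and 532); 64 and 98 of those were cycling.

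Classes were gated on raw UMIs of lineage markers, none of them a member, and were compared with Leiden clusters (leidenalg 0.10.2). UMIs were summed per class and library and divided by the class total (CPM). Intervals were exact Poisson, Clopper-Pearson or conditional binomial ones at 95% (scipy 1.17.1). A gene counted as past the fold at a log2 ratio of 0.5 (pseudocount 1 CPM), among genes at 50 CPM in either library and classes with 100 barcodes in each, without mitochondrial, haemoglobin or ribosomal protein genes. The fold call was tested before use on simulated Poisson counts. Their changes were larger than the fold limit and held no spread between cells, so smaller differences were not covered. The cycling call was meant to use a number of UMIs and was made by number and share together, with each alone as an alternative. The balance of S-phase and mitotic UMIs was given by leaning, since few cycling barcodes lacked either list.

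Named genes are members, the 5 of each list with most UMIs, the 3 highest and 3 lowest ratios per class with at least 20 UMIs, control genes past the fold at 50 CPM in macrophages or CD8 T cells (0 were), and the 10 genes most like the summed members. Foxm1, Mybl2, Cdkn2c, Cdkn1a, Btg1 and Btg2 fall outside this rule and were chosen after their values were seen. Members and lists were chosen with earlier results of these data known. Alternatives changed the cycling limit, gates, doublet removal, thinning, filter on low genes, scaling and pooling.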

Additional observations from a re-analysis of the deposited data

How the results depend on the processing

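The lower cycling share of KO macrophages kept its direction under 15 of 15 alternatives (log2 ratio -0.51 to -0.20; -0.51 with Leiden cluster classes), and the lower S-phase sum under 13 of 13 (-0.32 to -0.13). The lower mitotic sum kept it under 12 of 13 and turned to 0.072 with equal weight for the 3 ranges of macrophage to monocyte markers, an alternative chosen after seeing the data, as were the range over 5 times and leaving out the top barcode. The S-phase ratio of macrophages was -0.21 with equal ranges, -0.13 over 5 times, -0.19 thinned to 1000 UMIs, -0.18 with stricter gates and -0.32 with Leiden classes. The mitotic ratio was -0.021 over 5 times, -0.27 as a mean of per-barcode CPM, -0.23 thinned, -0.20 with every deposited barcode, -0.20 without Scrublet removal, -0.21 with looser gates, -0.11 with stricter gates and -0.23 with Leiden classes. In CD8 T cells the S-phase ratio ran from 0.18 to 0.30 and the mitotic ratio from 0.088 (mean of per-barcode CPM) to 0.37 (looser gates), and the ratio of cycling shares from -0.03 to 0.51, with 2 of 15 alternatives below 0. The melanoma and cDC1 ratios kept their directions under every alternative run, but the ratio of cycling shares ran from -1.28 (S-phase list alone) to -0.14 (5 UMIs with any share) in melanoma and from 0.34 (any share) to 3.56 (S-phase list) in cDC1. In T cells with neither or both co-receptors the ratio of cycling shares had the other sign in 10 of 15 alternatives, and in cDC2 in 1 (0.02, S-phase list).

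The cycling share itself depended on the limit. In WT macrophages it was 23.4% at 10 UMIs, 50% at 5 UMIs with any share, 14.5% from the mitotic list, 9.54% from the S-phase list, 31.2% with all 44 genes, 30.2% with stricter gates, 22.1% with Leiden classes and 22.0% thinned. In KO macrophages it was 40.5% with any share, 12.4% mitotic, 7.15% S-phase, 26.1% with 44 genes, 25.6% with stricter gates, 15.5% with Leiden classes and 18.3% thinned. In WT CD8 T cells it was 36.6% with any share, 15.0% mitotic, 14.2% S-phase and 35.0% with 44 genes, and in KO CD8 T cells 17.3% mitotic, 18.1% S-phase and 44.1% thinned to 2000 UMIs. S-leaning barcodes made up 22.1% of cycling WT macrophages and 22.3% of cycling KO CD8 T cells after thinning to 1000 UMIs, and 22.3% of the latter at 2000. With no filter, and at 10 CPM, 1 of 44 members (Ccne2) was past the fold, lower, in macrophages (background 1.56% and 0.771%), and 5 of 44 were, higher, in CD8 T cells (15.9% and 6.92%). Among ratios in small classes with an interval clear of 0, these turned: the mitotic ratio of mature dendritic cells (-0.48 thinned, from 1.03), the S-phase ratio of B cells (-0.056 as a per-barcode mean and -0.30 without the top barcode, from 0.51) and the mitotic ratio of plasma cells (-0.27 with stricter gates, from 0.34). Ratios with an interval that spans 0 also turned, among them the S-phase ratios of granulocytes (6 of 11 alternatives, to -0.58), plasma cells (5 of 11), CD4 T cells (4 of 11) and plasmacytoid dendritic cells (1 of 11, to -0.76) and the mitotic ratio of granulocytes (3 of 11, to -0.91). Of the summed ratios of macrophages and CD8 T cells under these alternatives 15 moved out of their interval, 1 whose interval was clear of 0 turned and 32 stayed within their interval, and of those of the other classes 57 moved out, 4 whose interval was clear of 0 turned and 203 stayed within, and 132 values of single members did not. The cause of these shifts was not tested.

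Scaling to the median ratio of genes shifted granulocyte ratios by -0.16, plasma by -0.29 and B by -0.10, and the others by less. No paired analysis was possible because each group has 1 library and the groups share only the number 1; leaving out a replicate is not possible either. With 1 library per genotype, no difference can be told apart from a difference between pools of mice or preparations, and classes under 100 barcodes rest on few cycling cells.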

Other observations

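Barcodes with markers of several lineages, which entered no class, were cycling in 88 of 352 (WT) and 65 of 267 barcodes (KO), with medians of 10926 and 9716 UMIs. Barcodes that no gate took were cycling in 6.08% of 625 (WT) and 3.64% of 879 (KO), with medians of 1402 and 1478 UMIs. The barcodes removed by doublet score had medians of 11237 and 8725 UMIs.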
